A study of Mus musculus with 6 samples.

Results

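Transcripts of 8 genes of epidermal T cells were followed on arrays of basal cells from the skin of pregnant and virgin mice. The genes were Ptprc, Cd3g, Cd3e, Cd3d, Cd247, Lck, Il2rb and Cd7, and every probe set that the platform annotation gives to one of them alone was taken, whatever its value. There were 12 such probe sets of 45101 on the array, covering 7 of the 8 genes. Lck was not analysed here, because no probe set in the annotation used is named for it alone. The cells were integrin α6+ cells negative for propidium iodide, sorted after cold trypsin digestion of skin, and the mice were C57BL/6 females, 10 weeks old. The 3 groups, with 2 arrays each, were 16 dpc ventral (abdominal skin at 16 days post coitum), 16 dpc dorsal (back skin at the same stage) and virgin ventral (abdominal skin of virgin mice). The sort as described used no marker to remove leukocytes, dorsal skin of virgin mice was not analysed here, and nothing in the labels says that the arrays of a group came from separate mice. What the p-values weigh is thus the spread among these arrays, and that spread may be technical.

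Mouse epidermis holds a resident population of γδ T cells, the dendritic epidermal T cells, which lie among the keratinocytes and extend dendrites between them. Their T cell receptor is carried to the surface and linked to signalling by the CD3 chains and CD3ζ. The phosphatase CD45, which is found on nearly all leukocytes, and the kinase Lck control the first phosphorylation steps at that receptor. These cells are kept in the epidermis by interleukin-15, which signals through the receptor β chain that it shares with interleukin-2.

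The label was only partly borne out by detection. A call of present means that the perfect-match probes of a probe set stood above their mismatch partners by the test of the array software. Of the 12 probe sets 2 were called present on all 6 arrays, 1 for Ptprc and 1 for Cd3g, and the other 10 were called absent on all 6. The members thus had 16.7% present calls among 72, against 50.6% among 270606 over all probe sets. Cd3e, Cd3d, Cd247, Il2rb and Cd7 were present in none of the 3 groups, so for these 5 genes the arrays give only a bound. Across the 6 arrays the median signal of a probe set called absent was 12.9 to 19.2 and the 90th percentile of such signals was 51.4 to 80.0, in arbitrary units.

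The arrays themselves were alike in scale, with present calls for 47.2% to 53.3% of probe sets and median signals of 61.1 to 78.9. A sign of RNA quality differed between replicates. The 3′ to 5′ signal ratio of actin was 3.90 on 16 dpc ventral replicate 2 and 4.47 on 16 dpc dorsal replicate 2, against 1.78 to 2.46 on the other 4 arrays. The GAPDH ratio divided the arrays less clearly. It was 2.863 on 16 dpc ventral replicate 2, 2.833 on 16 dpc dorsal replicate 2, 2.501 on virgin ventral replicate 1 and 1.527 to 1.885 elsewhere. All 11 measured basal keratinocyte genes were present on all 6 arrays, with a summed signal of 175710 and 200591 in 16 dpc ventral, 169997 and 243172 in 16 dpc dorsal and 196859 and 190099 in virgin ventral cells.

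The region before the start of transcription is shown for the detected genes, Ptprc and Cd3g, and for Cd3e and Cd3d, which share the gene cluster of Cd3g. The sequences are those of RefSeq (GRCm38.p6), from 250 bases before to 50 bases after an annotated start, in the direction of the gene. Capitals mark the motif AGGAAG, on either strand, which is the core bound by ETS family factors and lies in 35.4% of 32851 promoters of this length. Ptprc lies on chromosome 1 (chr1:138175256-138175555, minus strand, the first of 2 annotated starts). The 3 CD3 genes lie together on chromosome 9, Cd3g at chr9:44980382-44980681 (minus strand), Cd3d at chr9:44981536-44981835 (plus strand) and Cd3e at chr9:45009562-45009861 (minus strand).
Ptprc: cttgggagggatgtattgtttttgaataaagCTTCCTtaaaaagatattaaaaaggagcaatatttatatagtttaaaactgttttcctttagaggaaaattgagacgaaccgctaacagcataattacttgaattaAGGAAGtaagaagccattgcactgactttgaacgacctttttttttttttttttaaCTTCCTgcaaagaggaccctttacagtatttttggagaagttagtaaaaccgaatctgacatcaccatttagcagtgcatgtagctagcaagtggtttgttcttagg
Cd3g: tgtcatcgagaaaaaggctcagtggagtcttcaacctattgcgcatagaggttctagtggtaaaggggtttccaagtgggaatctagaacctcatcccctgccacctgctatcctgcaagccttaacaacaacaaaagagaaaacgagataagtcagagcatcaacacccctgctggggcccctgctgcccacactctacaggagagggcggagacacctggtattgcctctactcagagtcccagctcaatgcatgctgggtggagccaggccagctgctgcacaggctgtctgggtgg
Cd3d: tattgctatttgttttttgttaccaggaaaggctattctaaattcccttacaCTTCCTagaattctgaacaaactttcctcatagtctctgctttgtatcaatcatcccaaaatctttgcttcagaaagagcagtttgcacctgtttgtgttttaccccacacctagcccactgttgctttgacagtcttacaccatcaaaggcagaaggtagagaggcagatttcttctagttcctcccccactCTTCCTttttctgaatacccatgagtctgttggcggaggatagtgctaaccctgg
Cd3e: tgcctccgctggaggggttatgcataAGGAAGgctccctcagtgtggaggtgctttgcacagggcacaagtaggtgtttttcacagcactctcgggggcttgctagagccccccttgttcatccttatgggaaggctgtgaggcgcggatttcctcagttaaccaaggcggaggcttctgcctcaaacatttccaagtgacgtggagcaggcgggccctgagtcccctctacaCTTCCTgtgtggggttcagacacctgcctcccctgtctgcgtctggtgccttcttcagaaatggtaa
The starts of Cd3d and Cd3g are 1355 bases apart and face away from each other, and that of Cd3e is 27825 bases from that of Cd3d. In the windows shown the ETS motif stands 3 times in Ptprc, 2 times in Cd3d, 2 times in Cd3e and 0 times in Cd3g. Over the 8 promoters found for 6 of the members, 7 hold it. The 8 are not independent, since the 2 windows of Ptprc overlap and share a match, and Lck also has 2 windows. The core bound by RUNX factors, TGTGGT, lies in 1 of the 8, a promoter of Lck, and in 16.8% of all promoters, while CANNTG, the E-box, lies in all 8 and in 72.3% of all. The motifs were searched on both strands, and a match is a run of letters and not a measured binding site.

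Ptprc encodes CD45, the receptor-type tyrosine phosphatase that removes the inhibitory phosphate of Src family kinases in leukocytes. Its signal was 205 and 156 in 16 dpc ventral, 202 and 238 in 16 dpc dorsal and 124 and 91.2 in virgin ventral cells (probe set 1422124_a_at, which reads several transcripts of the gene). All 4 arrays of 16 dpc cells were above both virgin arrays, and the ventral and dorsal arrays at 16 dpc overlapped. Taken separately, both ventral arrays were above both virgin arrays in 23.8% of all genes tested, and both dorsal arrays in 24.3%. The log2 fold change of 16 dpc ventral over virgin ventral cells was 0.75 ± 0.31 (SE), or 1.68-fold, with a 95% interval of 0.06 to 1.45. It ranked at place 1029 by p of 10993 genes tested and did not pass (limma, adjusted p = 0.396 over all genes). For 16 dpc dorsal over virgin ventral cells the log2 fold change was 1.05 ± 0.31 (SE; limma, adjusted p = 0.537), or 2.06-fold. Both values rest on the same virgin arrays. Within replicate numbers 1 and 2 the ventral difference from virgin cells was 0.73 and 0.78, and the dorsal one was 0.71 and 1.38.

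Between the 2 sites at 16 dpc, the log2 fold change of Ptprc in ventral over dorsal cells was -0.29 (95% interval -0.99 to 0.40; limma, adjusted p = 0.9999), with 0.02 within replicate 1 and -0.61 within replicate 2. The interval thus holds both a lower and a higher ventral level. The array lists a second Ptprc probe set, 1440165_at, which was called absent on all arrays and ran the other way. Its signal was 6.52 and 1.61 in 16 dpc ventral, 16.9 and 24.3 in 16 dpc dorsal and 35.4 and 25.7 in virgin ventral cells. When the log2 signals of both probe sets were averaged, the ventral over virgin fold change of Ptprc was -1.23 on the log2 scale (limma, adjusted p = 0.478), so its direction depends on the probe set.

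Cd3g encodes the CD3γ chain and is the only member that was both restricted to T cells in textbook use and called present. Its signal was 111 and 102 in 16 dpc ventral, 112 and 188 in 16 dpc dorsal and 117 and 80.9 in virgin ventral cells. The ventral arrays at 16 dpc lay between the virgin arrays, and the highest value was that of dorsal replicate 2. That array had the highest actin ratio, and its GAPDH ratio of 2.833 was close to the highest, 2.863. It also had the highest signals of absent probe sets, with a median of 19.2 and a 90th percentile of 80.0. Those of dorsal replicate 1 were the lowest, at 12.9 and 51.4. How far this raised weak signals on dorsal replicate 2 was not tested. The log2 fold change of 16 dpc ventral over virgin ventral cells was 0.12 ± 0.37 (SE; limma, adjusted p = 0.930), with a 95% interval of -0.73 to 0.98. Within replicates 1 and 2 it was -0.08 and 0.33, and without virgin ventral replicate 2 it was -0.14. Against dorsal cells the ventral log2 fold change was -0.45 (95% interval -1.31 to 0.40; limma, adjusted p = 0.9999), with both ventral arrays below both dorsal arrays, as held for 19.7% of all genes tested. This difference was -0.89 within replicate 2 and -0.02 within replicate 1, and without 16 dpc dorsal replicate 2 it was -0.08. For 16 dpc dorsal over virgin ventral cells it was 0.58 (95% interval -0.27 to 1.43; limma, adjusted p = 0.730), with -0.06 within replicate 1 and 1.22 within replicate 2.

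Of the 2 member genes that could be tested, 0 passed in any comparison. Over all 10993 genes the share past the threshold was 0.200% for 16 dpc ventral over virgin ventral, 0.0819% for 16 dpc ventral over 16 dpc dorsal and 0% for 16 dpc dorsal over virgin ventral cells. At an unadjusted p under 0.05 there was 1 member, Ptprc, in each of the comparisons with virgin cells and 0 between the sites. Over all genes this weaker criterion took 1280 for ventral over virgin, 799 for dorsal over virgin and 559 for ventral over dorsal cells. The median log2 fold change of the 2 members was 0.44, -0.37 and 0.81 for ventral over virgin, ventral over dorsal and dorsal over virgin cells. Over all genes tested it was 0.02, -0.03 and 0.07 in the same order.

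**Figure D1:**
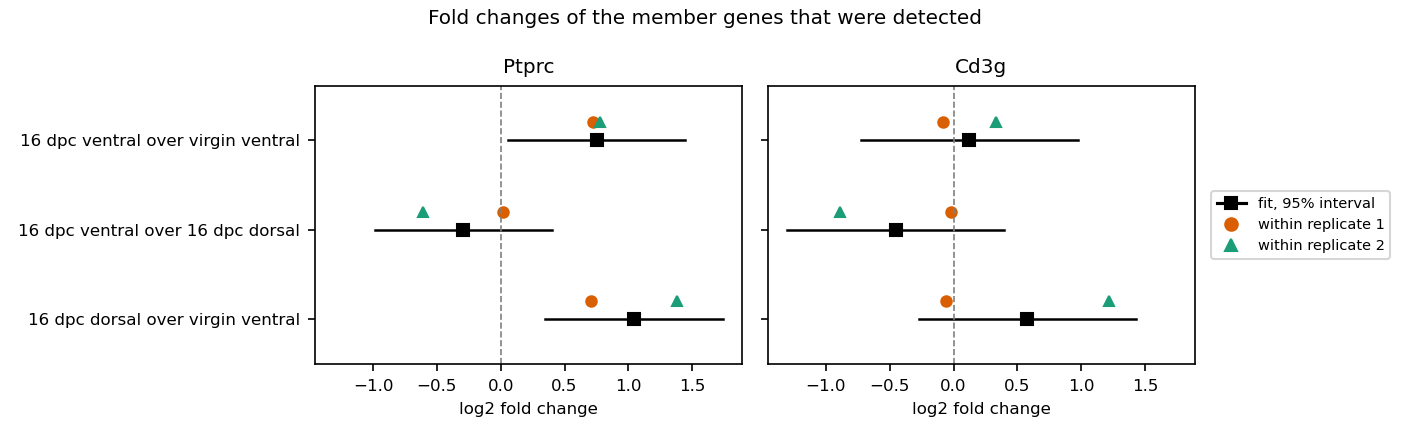
Log2 fold changes (horizontal axis) of Ptprc and Cd3g in 3 comparisons. Squares with lines are the limma estimate and its 95% interval from 6 arrays, circles and triangles the differences within replicate 1 and replicate 2, and the dashed line marks no difference. The intervals of Ptprc over virgin cells, 0.06 to 1.45 for ventral and 0.35 to 1.74 for dorsal cells, lie above 0, and all intervals of Cd3g span 0.

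The other chains of the CD3 complex were below detection on every array. Cd3e encodes CD3ε, the chain that pairs with CD3γ or CD3δ in the receptor. Its signal was 48.8 and 77.9 in 16 dpc ventral, 59.5 and 60.9 in 16 dpc dorsal and 11.8 and 22.7 in virgin ventral cells. Cd3d, which encodes CD3δ, stood at 51.4 and 11.2 in 16 dpc ventral, 53.1 and 85.6 in 16 dpc dorsal and 2.998 and 7.63 in virgin ventral cells. In both genes all 4 arrays of 16 dpc cells were above both virgin arrays, and all 6 calls were absent. No fold is given, since neither side was detected. With no filter on detection, where 18193 genes were tested, Cd3e had an adjusted p of 0.441 and Cd3d of 0.541 for ventral over virgin cells (limma), and 0.706 and 0.602 for dorsal over virgin cells.

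Counted over the 7 members on the array, Ptprc, Cd3e and Cd3d were the 3 whose 2 ventral arrays at 16 dpc both exceeded both virgin arrays, and the same 3 did so for dorsal arrays. Over all 18193 named genes this held for 20.1% in the ventral and 20.1% in the dorsal comparison. For ventral above dorsal arrays it held for 0 members, against 14.2% of all genes. The virgin arrays are shared by the first 2 counts, and the share of all genes that met both was not counted.

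The 4 probe sets of Cd247, which encodes CD3ζ, the chain with most of the tyrosine motifs of the receptor, were absent throughout and had no common order. The brightest, 1426396_at, stood at 22.3 and 36.9 in 16 dpc ventral, 40.3 and 61.8 in 16 dpc dorsal and 41.8 and 28.3 in virgin ventral cells. The other 3 ranged from 1.72 to 37.7, and groups overlapped in all of them, while the ventral arrays of 1426396_at were both below the dorsal ones. Il2rb encodes the β chain of the interleukin-2 and interleukin-15 receptors. Its brighter probe set, 1417546_at, stood at 35.5 and 3.71 in 16 dpc ventral, 22.5 and 22.7 in 16 dpc dorsal and 16.4 and 62.2 in virgin ventral cells, and the other ranged from 3.88 to 24.0. Cd7 encodes an immunoglobulin-like surface protein of T and NK cells. It was the dimmest member, at 6.47 and 9.47 in 16 dpc ventral, 7.67 and 16.52 in 16 dpc dorsal and 9.24 and 11.5 in virgin ventral cells. In Il2rb and Cd7 the replicates of a group stood as far apart as the groups did, except that both dorsal arrays lay just above both virgin arrays in the dimmer Il2rb probe set.

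**Figure D2:**
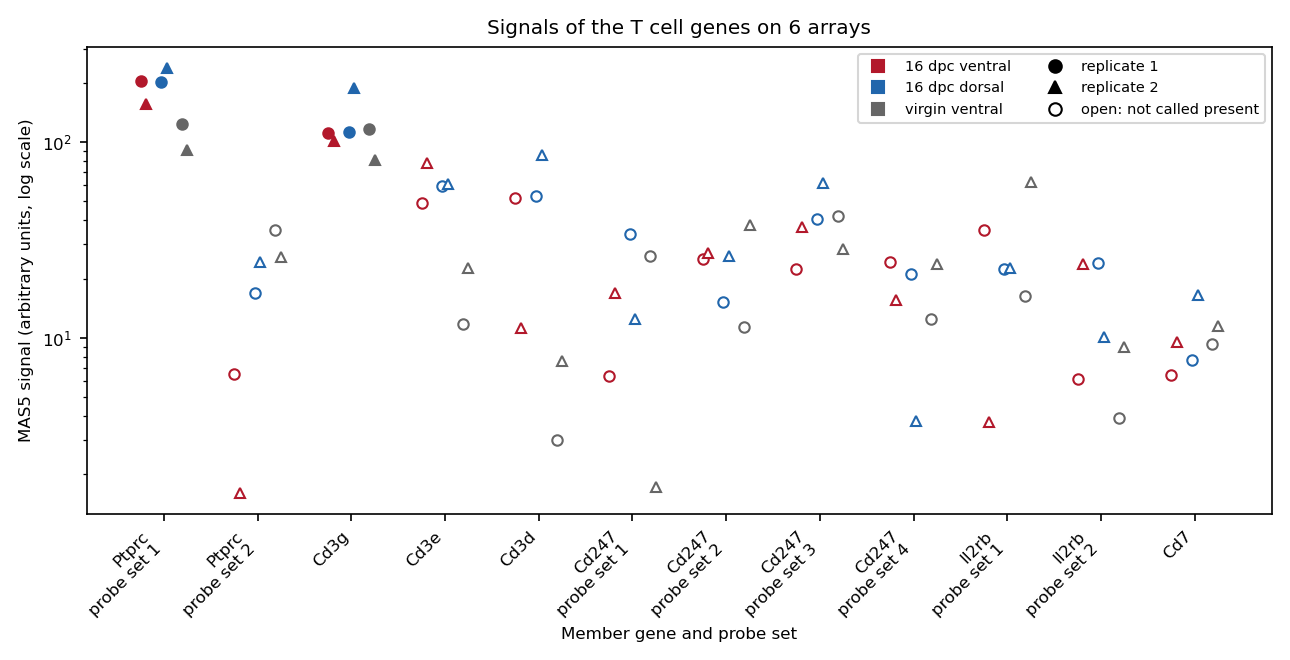
MAS5 signal (vertical axis, arbitrary units, log scale) of the 12 probe sets of 7 member genes on 6 arrays. Red is 16 dpc ventral, blue 16 dpc dorsal and grey virgin ventral, circles are replicate 1 and triangles replicate 2, and open symbols were not called present. Only the first Ptprc probe set and that of Cd3g are filled, and the Cd3e and Cd3d signals of 16 dpc cells lie above those of virgin cells.

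Across the 6 arrays the log2 signals of Ptprc correlated with those of Cd3g at r = 0.75. This value describes 6 points that share arrays, groups and scaling, and none is given for the members that were not detected. Among the other 10991 genes tested, the 10 most like the mean pattern of Ptprc and Cd3g by Pearson r over the 6 arrays were Pard6a, Armt1, Dhdds, Kansl2, Sepsecs, Fut11, Fpgs, Crybg1, Ppan and Armcx3, with r from 0.98 to 0.99. None of these is a textbook T cell gene, none passed the threshold, and 158 genes had r of 0.9 or more.

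Probe sets for the T cell receptor chains themselves were few. Of 26 listed chain genes 1 was found by symbol, Tcra, which was present on 1 array, 16 dpc dorsal replicate 2, with a signal of 20.4. Probe sets named for variable segments of the γ and β chains were looked up after the other values were seen. A Trgv4 probe set, 1450521_a_at, for a variable segment of the γ chain, stood at 89.9 and 85.1 in 16 dpc ventral, 66.7 and 132 in 16 dpc dorsal and 63.5 and 62.4 in virgin ventral cells, and it was present on 5 arrays and marginal on virgin replicate 1. Like Cd3g, it was highest on dorsal replicate 2, the array with the highest signals of absent probe sets. Of the other 2 Trgv4 probe sets 1 was called present on 4 arrays, again highest on dorsal replicate 2 (222), and 1 on 0 arrays, as was that of Trgv1. A Trbv1 probe set, 1452205_x_at, for a β chain segment, was present on all arrays, at 1148 and 1198 in 16 dpc ventral, 1136 and 1010.3 in 16 dpc dorsal and 1108 and 1352 in virgin ventral cells. The ending of its name marks probes that also match other transcripts, so it cannot be read as that segment alone, and the same holds for the Trgv4 probe set that reached 222. The other Trbv1 probe set was present on 4 arrays, at 52.8 and 44.4 in 16 dpc ventral, 55.6 and 82.3 in 16 dpc dorsal and 58.1 and 45.3 in virgin ventral cells.

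The wider T cell programme was described with lists of genes for each step. The lists are not limited to genes of T cells alone, and which cells gave each signal was not tested. Several detected genes stood far above Cd3g, at 80.9 to 188, such as Rasgrp1 at 2449 to 3274 and Ikzf2 at 3464 to 6435. Their values thus cannot be read as those of T cells. Of 23 genes of T cell receptor signalling on the array, 9 were detected in at least 1 group and 0 passed in any comparison. The adaptors Lat and Grap2 and the kinase Prkcq were among 8 that were present on no array. In ventral over virgin cells 2 of the 9 had a higher and 7 a lower mean (median log2 fold change -0.06, against 0.02 over all genes). In ventral over dorsal cells all 9 had a lower mean (median -0.14, against -0.03 over all genes). Nfatc2, a transcription factor activated by calcium signals, stood at 265 and 141 in 16 dpc ventral, 323 and 254 in 16 dpc dorsal and 344 and 449 in virgin ventral cells (log2 fold change over virgin -1.03; limma, adjusted p = 0.292). Zap70, the kinase that binds phosphorylated CD3 chains, was read as 656 and 418 in 16 dpc ventral, 779 and 1390.5 in 16 dpc dorsal and 651 and 1353 in virgin ventral cells by 1 of its 3 probe sets. The other 2 Zap70 probe sets were present on no array. Rasgrp1, an exchange factor that activates Ras below the receptor, had a log2 fold change over virgin cells of 0.19.

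Surface molecules of T cells were mostly undetected. Of 23 on the array, 5 were detected in at least 1 group and 13, among them Cd2, Cd6, Cd27 and Cd28, on no array. Thy1, the glycoprotein long used to find dendritic epidermal T cells and also expressed by fibroblasts and neurons, was the 1 gene of the list to pass. Its signal was 3086 and 4216 in 16 dpc ventral, 1347 and 2235 in 16 dpc dorsal and 402 and 457 in virgin ventral cells. It rose in 16 dpc ventral over virgin ventral cells by a log2 fold change of 3.07 (limma, adjusted p = 0.0105). The call was lost without virgin ventral replicate 2 (log2 fold change 3.16, adjusted p = 0.1395), and also without a variance trend and with every probe set tested on its own (adjusted p = 0.125 in both). Thy1 was chosen by the study on these samples, so its direction is not independent evidence. Its fold change was larger than those of the detected members, with Ptprc at 0.75 and Cd3g at 0.12 in the same comparison, and these differences between genes were not tested. For ventral over dorsal cells the log2 fold change of Thy1 was 1.06 (limma, adjusted p = 0.421), while those of Ptprc and Cd3g were -0.29 and -0.45. For dorsal over virgin cells the log2 fold change of Thy1 was 2.02 (limma, adjusted p = 0.0526, and 0.00911 with a replicate block). On these arrays its higher level at 16 dpc was thus not shown to be limited to ventral cells. Both ventral arrays at 16 dpc did lie above both dorsal arrays, as held for 13.1% of all genes tested. The paper selected Thy1 because it exceeded each comparison group, so this order is not independent evidence either. By qPCR, the paper reports significantly more Thy1 in pregnant abdomen than in pregnant back or virgin abdomen. That assay read skin tissue and not sorted basal cells.

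In the interleukin-2 and interleukin-15 receptor pathway 8 of 13 genes on the array were detected in at least 1 group, and 0 passed. Il2 and its receptor α chain Il2ra were present on no array. Cish, a feedback inhibitor induced by STAT5, stood at 2598 and 3582 in 16 dpc ventral, 2403 and 2830.0 in 16 dpc dorsal and 1283 and 1563 in virgin ventral cells (log2 fold change over virgin 1.11; limma, adjusted p = 0.0936). Il15, the cytokine that keeps these T cells in the skin, stood at 157 and 119 in 16 dpc ventral, 154 and 168 in 16 dpc dorsal and 183 and 347 in virgin ventral cells (log2 fold change -0.88; limma, adjusted p = 0.392). For both genes the ventral arrays at 16 dpc and the virgin arrays did not overlap. In that comparison both ventral arrays were higher in 23.8% and both were lower in 19.8% of all genes tested. Stat5a, a transcription factor of this pathway, had a log2 fold change over virgin cells of 0.51 (limma, adjusted p = 0.341).

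Other T cell lists gave 0 genes past the threshold. Of 16 transcription factors of lymphoid cells on the array 11 were detected in at least 1 group, with a median of -0.25 for ventral over virgin cells. Log2 fold changes over virgin cells were -0.53 for the Ikaros family factor Ikzf2, 0.41 for Ets1 and -0.93 for Prdm1. Ikzf1, Tbx21 and Sox13 were present on no array, while Gata3, which keratinocytes also express, stood between 9259 and 14023. Of 23 effector and receptor genes of epidermal γδ T cells 2 were detected in both arrays of a group, Fcer1g and perforin (Prf1), and 14, among them Klrk1, Gzmb and Ccr10, were present on no array. Prf1, the pore-forming protein of cytotoxic cells, stood at 109 and 80.5 in 16 dpc ventral, 53.7 and 57.9 in 16 dpc dorsal and 48.2 and 72.2 in virgin ventral cells. It was present on both ventral arrays at 16 dpc, on 1 dorsal array and on 0 virgin arrays (log2 fold change over virgin 0.66; limma, adjusted p = 0.578). Prf1 was tested only because both ventral arrays, where it was highest, were called present. The sign of its fold change is thus partly set by that filter and is no evidence of a rise.

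Keratinocyte ligands and attractants for these T cells were detected more often, 8 of 10 on the array. Skint10, of the family whose member Skint1 selects epidermal γδ T cells, stood at 1461 and 1157 in 16 dpc ventral, 2749 and 1277 in 16 dpc dorsal and 2665 and 3658 in virgin ventral cells (log2 fold change over virgin -1.26; limma, adjusted p = 0.232). Both ventral arrays at 16 dpc were below both virgin arrays, as held for 19.8% of all genes tested. H60c, a keratinocyte ligand of the receptor encoded by Klrk1, stood at 2356 and 2776 in 16 dpc ventral, 1849 and 2283 in 16 dpc dorsal and 2369 and 2526 in virgin ventral cells. Tslp, an epithelial cytokine, stood at 52.0 and 37.8 in 16 dpc ventral, 102 and 137 in 16 dpc dorsal and 93.6 and 84.4 in virgin ventral cells, and the skin chemokine Ccl27a had a log2 fold change over virgin cells of -0.44. Of the 8 genes 2 had a higher and 6 a lower mean in ventral over virgin cells, and 0 passed in any comparison.

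**Figure D3:**
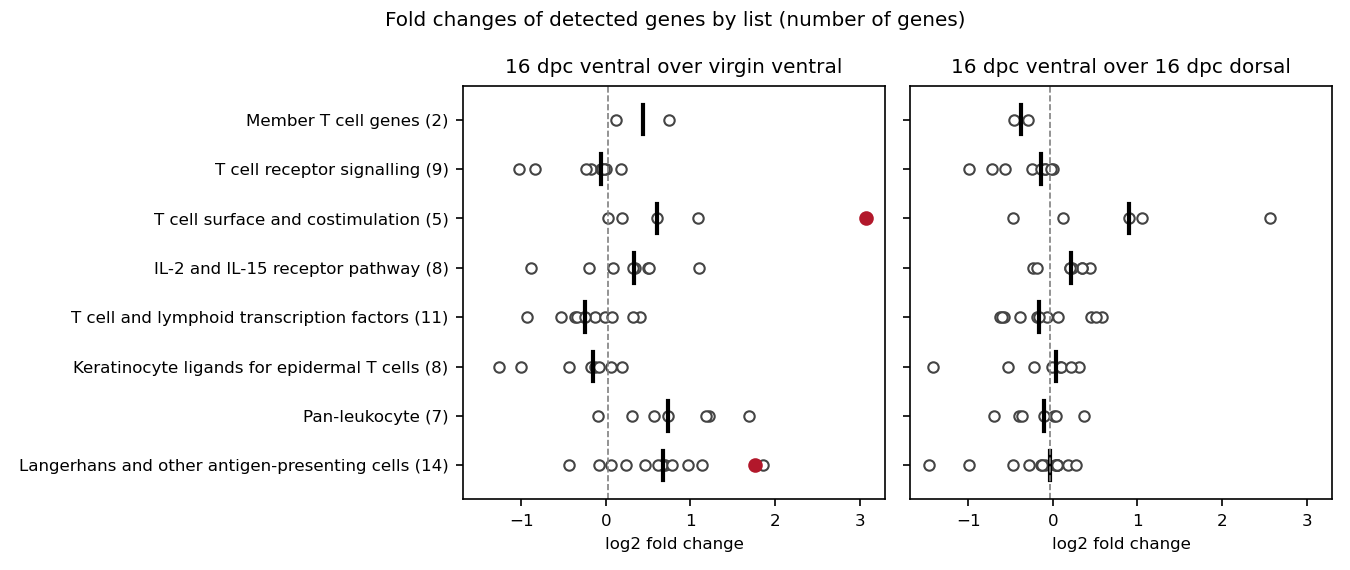
Log2 fold changes (horizontal axis) of the detected genes of 8 lists, with the number of genes behind each list name. Filled red points passed the threshold, open points did not, black bars are list medians and the dashed line is the median of all genes. Thy1 at 3.07 and Csf1r at 1.76 are the filled points. The isolated open surface gene on the right of the ventral over dorsal panel is Cd5, which was absent on 1 of the 2 dorsal arrays. Cd5 was tested only because both ventral arrays at 16 dpc were called present.

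CD45 is not particular to T cells, so the level of other leukocyte genes is given beside it. In the pan-leukocyte list 0 genes passed in any comparison. On the array were 14 pan-leukocyte genes with a summed signal of 4377 and 4568 in 16 dpc ventral, 3891 and 4319 in 16 dpc dorsal and 2475 and 4264 in virgin ventral cells. Of these 7 were detected in both arrays of a group. In ventral over virgin cells 6 of the 7 had a higher mean (median 0.74, against 0.02 over all genes). The same count held in dorsal over virgin cells (median 1.11, against 0.07 over all genes). Between the sites 3 were higher and 4 lower (median -0.10, against -0.03 over all genes). Laptm5, a lysosomal protein of blood cells, stood at 325 and 249 in 16 dpc ventral, 339 and 416 in 16 dpc dorsal and 160 and 93.2 in virgin ventral cells, the same order of groups as Ptprc. The actin-bundling protein Lcp1 had a log2 fold change of 1.69 over virgin cells in the ventral comparison (limma, adjusted p = 0.0839), and Cytip, a cytohesin-binding protein of leukocytes, 1.19 (limma, adjusted p = 0.216). Of the 7, Was was lower in ventral (-0.09) and Arhgdib in dorsal cells (-0.06) than in virgin cells. Was was absent on both virgin arrays and was tested only through the 16 dpc groups. Arhgdib was also the largest part of the list's sum on every array. It stood at 2426 and 3091 in 16 dpc ventral, 1947 and 2319 in 16 dpc dorsal and 1475 and 3312 in virgin ventral cells. The sum thus follows that gene more than any other.

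Markers of Langerhans cells and other antigen-presenting cells, the other leukocytes of the epidermis, had a summed signal of 10709 and 7497 in 16 dpc ventral, 10611 and 9673 in 16 dpc dorsal and 5805 and 4214 in virgin ventral cells over 20 genes. Present were 16 and 13 of them in 16 dpc ventral, 15 and 12 in 16 dpc dorsal and 11 and 10 in virgin ventral cells. Csf1r, the receptor on which Langerhans cells depend, rose by 1.76 on the log2 scale in ventral over virgin cells (limma, adjusted p = 0.0406). For dorsal over virgin cells its log2 fold change was 1.71 (limma, adjusted p = 0.0954, and 0.0160 with a replicate block). The call in ventral cells was lost when either ventral array at 16 dpc was left out (adjusted p = 0.139 without replicate 1 and 0.136 without replicate 2), without virgin ventral replicate 2 (adjusted p = 0.190), and with the mean of its 3 probe sets (0.241). Cd207, which encodes langerin, stood at 304 and 186 in 16 dpc ventral, 249.8 and 176 in 16 dpc dorsal and 129 and 33.1 in virgin ventral cells. It was called present on both 16 dpc ventral arrays and dorsal replicate 1, marginal on dorsal replicate 2 and absent on both virgin arrays. The part of antigen-presenting cells in the Ptprc signal was not tested. Fewer cells of a type and less RNA per cell cannot be told apart in these bulk samples.

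Markers of other lymphocytes were detected in part. Of 6 αβ T cell genes on the array 0 were detected in both arrays of a group, and Cd4, Cd8b1, Ccr7 and Cd40lg were present on no array. The sum of the list was 172 and 281 in 16 dpc ventral, 148 and 347 in 16 dpc dorsal and 244 and 222 in virgin ventral cells. Its largest part on every array was the Cd8a probe set used, at 88.2 to 184, which was called absent on every array. The sum is thus mostly signal below detection. Of 9 NK and innate lymphoid genes 2 were detected, Klrb1b and Klrd1, and Ncr1 and Eomes were present on no array. The sum of that list was 245 and 357 in 16 dpc ventral, 240.2 and 354 in 16 dpc dorsal and 245 and 310.3 in virgin ventral cells. Of 8 B cell genes on the array 4 were present on no array, among them Cd79a, Cd79b and Pax5. Present on all 6 were Ms4a1, which encodes CD20, at 25.3 to 49.3, and the adaptor Blnk, at 366 and 216 in 16 dpc ventral, 501 and 405 in 16 dpc dorsal and 402 and 771 in virgin ventral cells. The B cell list summed to 606 and 572 in 16 dpc ventral, 710.2 and 826 in 16 dpc dorsal and 711 and 1186 in virgin ventral cells. All 9 mast cell genes were present on no array.

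**Figure D4:**
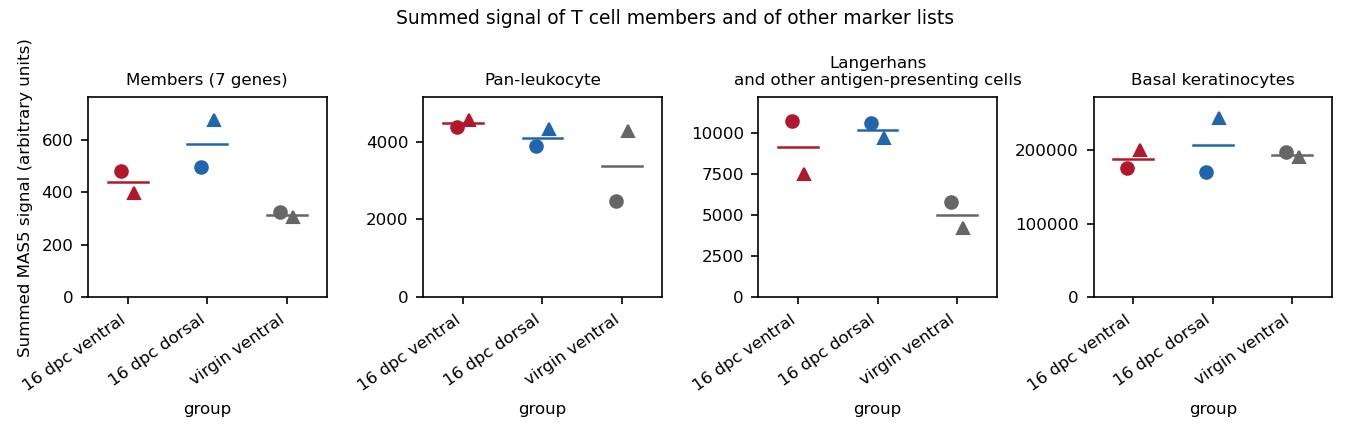
Summed MAS5 signal (vertical axes, arbitrary units, from 0) of 4 lists on each array, with 1 probe set per gene. Circles are replicate 1, triangles replicate 2 and lines the mean of 2 arrays. The 7 members summed to 480.5 and 397 in 16 dpc ventral, 498 and 674 in 16 dpc dorsal and 323 and 304 in virgin ventral cells. Of these 7, 5 were called absent on every array, so part of their sum is signal below detection. The antigen-presenting list shows the same separation of 16 dpc from virgin arrays. Arhgdib is the largest part of the pan-leukocyte sum on every array.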

How the data were processed

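Each deposited file holds an array's signal intensity and detection call for every probe set. The authors hybridised RNA to Affymetrix 3′ expression arrays and, per the submitters' processing notes, used Affymetrix Expression Console version 1. The values behave as MAS5 signals scaled to a trimmed mean of 500.0 on each array, which cannot show a change in total RNA. The deposited value table holds the same signals and was not used separately. Analysis was on log2 signals with a floor of 1. Of the probe sets naming 1 gene (34945), the brightest by mean log2 signal represented each of 18193 genes. A gene counted as detected, and was tested, where both arrays of some group were called present (10993 genes). Differences were tested with limma 3.58.1 (lmFit, eBayes with a trend) in R 4.3.3 on 6 arrays in 3 groups, two-sided, at 0.05 after Benjamini-Hochberg adjustment over the genes tested. An exact permutation test of 2 against 2 arrays cannot go below p = 0.333. Arrays limit precision by their number. Python 3.11.15 was used for tables. The fit was tested on simulated data.

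The members and gene lists were chosen with earlier results of these data known. From each list the genes past the threshold, or else the 3 of smallest p for ventral over virgin cells, were to be named, though those of the keratinocyte, Src kinase, neutrophil, melanocyte, fibroblast and mammary lists are left out. Was, Arhgdib, H60c, Gata3, Cd5, Cd207 and the genes present on no array are named outside that rule. The platform annotation gave the gene symbols. Column headers name a slightly later day of gestation than the labels, whose day is used. Alternatives were a replicate block, other probe set summaries, filters, scalings and variance models, and leaving out arrays.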

Additional observations from a re-analysis of the deposited data

How the results depend on the processing

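With 2 arrays per group and member signals near the detection limit, only differences well above the replicate spread could pass. The count of members past the threshold was 0 under all 51 combinations of an alternative and a comparison, also with no detection filter, where 7 members were tested. For the ventral over virgin comparison the mean of all probe sets turned the sign of Ptprc (log2 fold change -1.23) and the median of the members (-0.55), since it brings in a probe set called absent on all arrays. The same setting gave medians of -0.96 for ventral over dorsal and 0.41 for dorsal over virgin cells. Without both 16 dpc replicate 2 arrays, the Ptprc value for ventral over dorsal cells was 0.0187 and the median 5e-04. The cause was not tested. Leaving out 1 array in turn gave 0.53 to 0.97 for Ptprc and -0.14 to 0.39 for Cd3g in ventral over virgin cells. For dorsal over virgin cells it gave 0.82 to 1.27 for Ptprc. The sign of Ptprc changed in 2 and that of Cd3g in 1 of 51 alternatives.

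The value of Csf1r for ventral over dorsal cells, 0.05, changed sign with the mean of all probe sets (-0.15), and leaving out 1 array gave -0.11 to 0.21. Of 17 alternatives, 3 ended the call of Thy1 and 8 that of Csf1r over virgin cells. The count of all genes past the threshold, 22 for ventral over virgin, 9 for ventral over dorsal and 0 for dorsal over virgin cells, ran over the alternatives from 0 to 115, 0 to 24 and 0 to 62.

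Same-numbered arrays of the 3 groups share a prefix in the file headers, but the labels do not say that a number marks a batch, day or litter, and they were not treated as pairs. The correlation of their deviations was 0.45 between the 16 dpc groups and 0.01 and 0.03 with virgin cells. With a replicate block the adjusted p of Ptprc was 0.275 for ventral over virgin, 0.943 for ventral over dorsal and 0.276 for dorsal over virgin cells, and that of Cd3g was 0.914, 0.918 and 0.607. The block also took Thy1 and Csf1r past the threshold for dorsal over virgin cells (adjusted p = 0.00911 and 0.0160). It moved the count of all genes past the threshold to 86, 16 and 11, against 22, 9 and 0 without it.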
